A study of Mus musculus with 12 samples.

Results

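The variable segments of the T cell receptor alpha and beta chains were described here in cultured OT-I cells. Every row of the deposited gene-level array table whose gene symbol begins with Trav or Trbv was kept, which gave 133 rows of the 40123 rows with a symbol. They comprised 110 alpha rows (Trav) and 23 beta rows (Trbv) under 132 distinct symbols, because Trav16n had 2 rows. RefSeq lists each of the 132 symbols, and it classes 6 of the rows as pseudogenes. In 4 pairs of rows, Trav7d-5 with Trav7n-5, Trav12d-1 with Trav12n-1, Trav5d-3 with Trav5n-3 and Trav14d-2 with Trav14n-2, both rows carried the same value on every array, so each pair is 1 measurement counted as 2 rows.

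OT-I cells come from a mouse line that carries rearranged alpha and beta receptor transgenes specific for an ovalbumin peptide on a class I molecule. The 4 groups, with 3 arrays each, were Y3 peptide plus corticosteroid, Y3 peptide, N4 peptide plus corticosteroid and N4 peptide. All were OT-I splenocytes, sampled after 4 days of culture with the peptide. N4 is known as the strong ovalbumin agonist and Y3 as an altered ligand that binds the receptor more weakly, while the labels leave out the name and dose of the corticosteroid. The arrays are labelled biological replicates, without a statement of whether they came from separate mice or cultures, so p-values measure the spread between these arrays, which may be partly technical. The table codes the groups by letters that the labels do not spell out, and that reading underlies every group value below.

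In developing T cells 1 variable segment is joined to a joining segment (alpha) or to a diversity and a joining segment (beta), and the joined gene is transcribed with its constant region. A productive beta chain usually blocks rearrangement of the other beta allele, whereas rearrangement of alpha continues in many cells, so receptor transgenic mice can still make endogenous alpha chains. The OT-I receptor pairs an alpha chain of the V alpha 2 family, the Trav14 segments, with a beta chain of the V beta 5 family, to which Trbv12-1 and Trbv12-2 belong (Tcrb-V5.2 and Tcrb-V5.1 among their RefSeq synonyms). These 11 rows, 9 Trav14 rows and 2 beta rows, are called the transgenic families below, and the other 122 rows are set beside them. Variable segments of a family are close in sequence, so a row's signal may include RNA of its relatives, and unjoined segments can be transcribed too.

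Levels are log2 signals. Those of different rows depend on their probes as well as on RNA, so their order is a description of the array and not of molecules. A row was called above the line where it exceeded the brightest of 23 background controls of the same array, and that line lay between 5.41 and 6.40 (log2). The median of the negative controls lay between 5.58 and 6.09. It exceeded the line on some arrays, such as N4 plus corticosteroid replicate 1 (5.72 against 5.41). Passing the line therefore does not by itself set a row apart from the negative controls. A stricter line, the 95th percentile of the negative controls, lay between 8.75 and 9.68. The labelled cell type could be seen in other rows: all 8 T cell markers and both CD8 rows were above the line on every array, whereas the myeloid (8 rows), dendritic (6) and erythroid (2) lists had no row above it on all arrays. Of 9 B cell markers, Cd79b and Ighm were above the line on all 12 arrays and the other 7, Cd79a and Ms4a1 among them, on none. Of 4 natural killer cell markers 1, Eomes, was above it throughout, and of 4 CD4 and regulatory T cell markers 1, Zbtb7b, while Cd4 was above it on 1 array. RNA from a mixed culture cannot separate fewer cells of a type from less RNA per cell.

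Trbv12-1 had the highest level of the 133 rows. It averaged 17.68 over the 12 arrays, was 279th of all 40123 rows, and ran from 17.05 to 18.33. It was the only beta row above the line on all 12 arrays. Trbv12-2, its family neighbour, averaged 6.26 and lay above the line on 10 arrays. Trbv31 averaged 6.08 (8 arrays above the line), Trbv15 5.58 (2 arrays) and Trbv1 5.56 (3 arrays). These 4 means lay within or near the range of the background line. The 21 beta rows outside the transgenic family had a median of 4.95 and none was above the line on all arrays, while 16 were above it on none.

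The alpha rows were graded. Trav14n-1 averaged 14.96 and Trav14d-1 14.75, a gap smaller than the spread of 3 arrays within a group. Trav14-2 followed at 12.04, Trav14d-2 and Trav14n-2 at 10.97, Trav14-3 at 10.45, Trav14-1 at 10.21, Trav14n-3 at 8.75 and Trav14d-3-dv8 at 8.43. All 9 were above the background line on all 12 arrays and within the first 19 ranks of the 133, and 7 of them also passed the stricter line on all arrays.

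**Figure D1:**
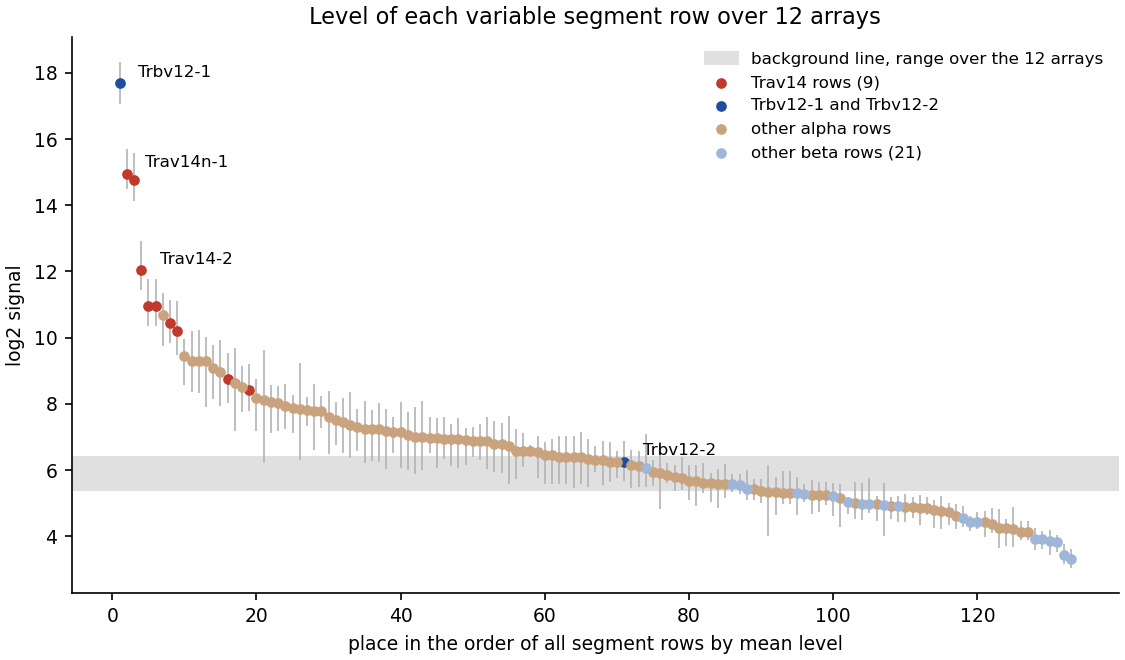
Mean log2 signal of the 133 variable segment rows in descending order, with the lowest and highest of 12 arrays as grey bars and the range of the background line as a band. Trbv12-1 stands alone at 17.68, the Trav14 rows lie between 8.43 and 14.96, and most other rows lie near the band.

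Some alpha segments outside the transgenic family were also above the line on all 12 arrays, which no beta row outside its family was. Of the 101 other alpha rows, 45 were above the line on all 12 arrays and 23 on none, with a median of 6.46. Among all 40123 rows of the array, 13925 were above it on all 12 arrays. The stricter line was passed on all arrays by 1 of the 101, Trav15-1-dv6-1, at 10.68. Trav13n-4 came next at 9.45, followed by Trav15n-2 (9.31), Trav15d-2-dv6d-2 (9.30), Trav16d-dv11 (9.29), Trav21-dv12 (9.08), Trav15-2-dv6-2 (8.97) and Trav6d-7 (8.62). From Trav13n-4 downward each step between neighbours was smaller than the spread of arrays within a group, so their order is not resolved. As a comparison family from another lineage, 227 immunoglobulin variable rows had a median of 4.45, with 9 above the line on all arrays and 190 on none.

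The alpha rows were also grouped by name, family and position, which the symbol rule did not use and the design did not list. A dv in the name marks a segment that can be joined in delta chains as well, since the delta locus lies inside the alpha locus. All 8 such rows outside Trav14 were above the line on all 12 arrays, with a median of 9.03, against 37 of the 93 rows named for alpha alone, with a median of 6.39. By family, all 6 Trav15 rows (median 9.14) and all 12 Trav13 rows (median 7.70) were above the line throughout, whereas the 3 Trav10 rows lay between 4.24 and 4.43. In the RefSeq order along the locus, the 6 rows just downstream of a Trav14 segment were the Trav15 rows. The 9 just upstream had a median of 7.24, and the other 86 had a median of 6.28. The lowest, median and highest means of those 9 upstream rows were those of Trav13d-2 (7.07), Trav13-4-dv7 (7.24) and Trav13n-4 (9.45). Family and position therefore coincide for Trav15, and at least in part for Trav13, and cannot be told apart. The dv names overlap with family too, since Trav15-1-dv6-1, Trav15d-1-dv6d-1, Trav15d-2-dv6d-2 and Trav15-2-dv6-2 are Trav15 rows. Copies of a segment without dv went either way. Trav15n-2 (9.31) lay beside Trav15d-2-dv6d-2 (9.30), and Trav13n-4 (9.45) above Trav13-4-dv7 (7.24). Trav15n-1 (6.89) lay below Trav15-1-dv6-1 (10.68), but so did Trav15d-1-dv6d-1 (6.88), the other dv copy of that segment.

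Much of the mouse alpha locus is triplicated, and copies are marked by d, n or no letter. Among 34 segments outside Trav14 with more than 1 copy on the table, the copies' means lay within 1 log2 unit of each other for 27, and the median spread was 0.34. The 3 Trav14 positions had a larger median spread, 2.02. The Trav14-1 position had 14.96 for the n copy, 14.75 for the d copy and 10.21 for the copy without a letter, a spread of 4.75. The spreads were 2.02 for the Trav14-3 copies and 1.07 for the Trav14-2 copies. Outside the family the widest spread, 3.79, was at Trav15-1. Those of Trav8-2 (2.34), Trav16 (2.33) and Trav13-4 (2.20) also exceeded that of Trav14-3. Whether probes or RNA set these spreads was not tested.

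**Figure D2:**
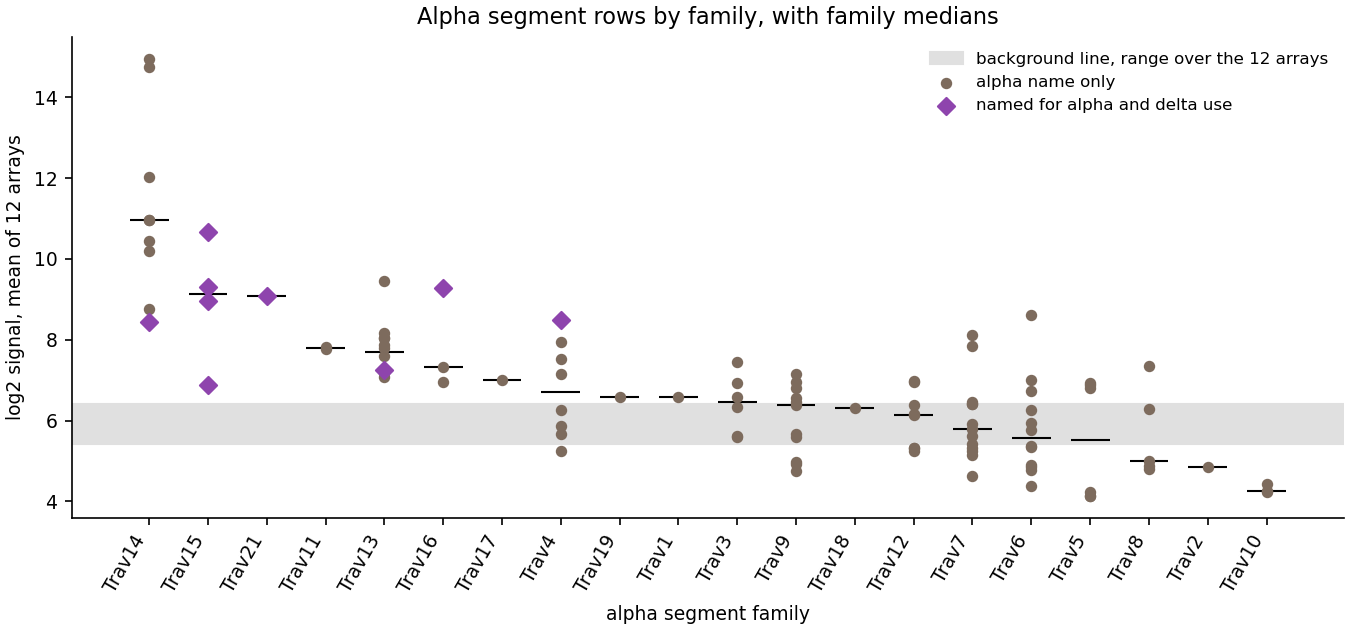
Mean log2 signal of each alpha row by family, ordered by the family median (black line), with segments named for alpha and delta use as diamonds and the background line's range as a band. Trav14 is highest with a median of 10.97, and the diamonds outside Trav14 lie between 6.88 and 10.68, all above the band.

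The peptide comparison asked whether segment levels differ between cells primed with the weaker and the stronger ligand. Trbv12-1 had 18.04, 18.33 and 17.66 in Y3 cells (replicates 1, 2 and 3), against 17.37, 17.55 and 17.05 in N4 cells. All 3 Y3 arrays were above all 3 N4 arrays, and the difference was 0.62 to 0.77 within each replicate number. The means were 18.01 ± 0.33 in Y3 cells and 17.32 ± 0.26 in N4 cells (SD, n = 3 each), a difference of 0.69 or 1.61-fold. Trav14n-1 had 15.02, 15.71 and 15.11 in Y3 cells, against 14.51, 14.87 and 14.70 in N4 cells. Its arrays did not overlap either, and its difference was 0.59 (1.50-fold). For Trav14d-1 the values were 14.80, 15.57 and 14.92 in Y3 cells and 14.12, 14.74 and 14.54 in N4 cells, a difference of 0.63. These were the 3 segment rows whose Y3 arrays all exceeded their N4 arrays, 2.26% of the members, whereas 5.21% of all rows did so, so the count is no result about the segments.

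All 9 Trav14 rows had a Y3 minus N4 difference above 0, from 0.31 to 0.63 with a median of 0.49. The other 101 alpha rows had a median of 0.09, and the 21 other beta rows -0.01, beside 0.00 over all 40123 rows. Among the 45 other alpha rows above the line on every array the median was 0.23, and 35 were above 0, while under corticosteroid it was 0.09, with 34 above 0. Higher values in Y3 than in N4 cells at all 3 replicate numbers were seen for 44 of the 133 rows (33.1%), beside 15.5% of all rows, and under corticosteroid for 31 (23.3%), beside 18.0%. Since rows of a family can share signal, these counts describe the rows and are not independent observations.

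In limma's moderated test across all 40123 rows, with Benjamini-Hochberg adjustment at 0.05, no segment row passed between Y3 and N4 cells (7 had an unadjusted p under 0.05), and 0.0299% of all rows did. The adjusted p was 0.461 for Trbv12-1 and 0.399 for Trav14n-1. The replicate numbers were taken to pair the arrays, which is an assumption. In deviations from group means, N4 and Y3 arrays of the same number correlated at 0.669, 0.126 and 0.419 (replicates 1, 2 and 3). Y3 replicate 2 correlated with N4 replicate 3 at 0.407. With the replicate number as a block 4 segment rows rose and none fell. That is 3.01% of the members, beside 1.66% of all rows that rose, 1.21% that fell and 2.87% in either direction, so the count is close to the background. By limma the 4 were Trbv12-1 (0.69 ± 0.10 SE, adjusted p = 0.00992), Trav14n-1 (0.59 ± 0.11, adjusted p = 0.0250), Trav21-dv12 (0.52 ± 0.09, adjusted p = 0.0197) and Trav17 (0.75 ± 0.16, adjusted p = 0.0477). Trav14d-1 missed the threshold at an adjusted p of 0.0541 in the same fit. Leaving out 1 array moved this count to 0 (N4 replicate 2 or Y3 replicate 3), 1 (N4 replicate 3 or Y3 replicate 2), 2 (N4 replicate 1, where 1 row rose and 1 fell) and 8 (Y3 plus corticosteroid replicate 1). The Trbv12-1 call was lost without N4 replicate 2, Y3 replicate 3 or replicate 1 of all groups, with adjusted p-values between 0.00505 and 0.0742 over its alternatives. The Trav14n-1 call was lost when any 1 of the 6 arrays compared was left out (0.0114 to 0.165 over its alternatives). Of 21 alternatives to the blocked fit, Trav21-dv12 passed in 13 (0.00921 to 0.147) and Trav17 in 8 (0.0136 to 0.190), the call of Trav17 being lost also under median centring, array weights and trend and robust moderation. The series matrix, 1 of these alternatives, held the same values and could change no call. Leaving out an array of a group not compared left the difference itself unchanged.

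**Figure D3:**
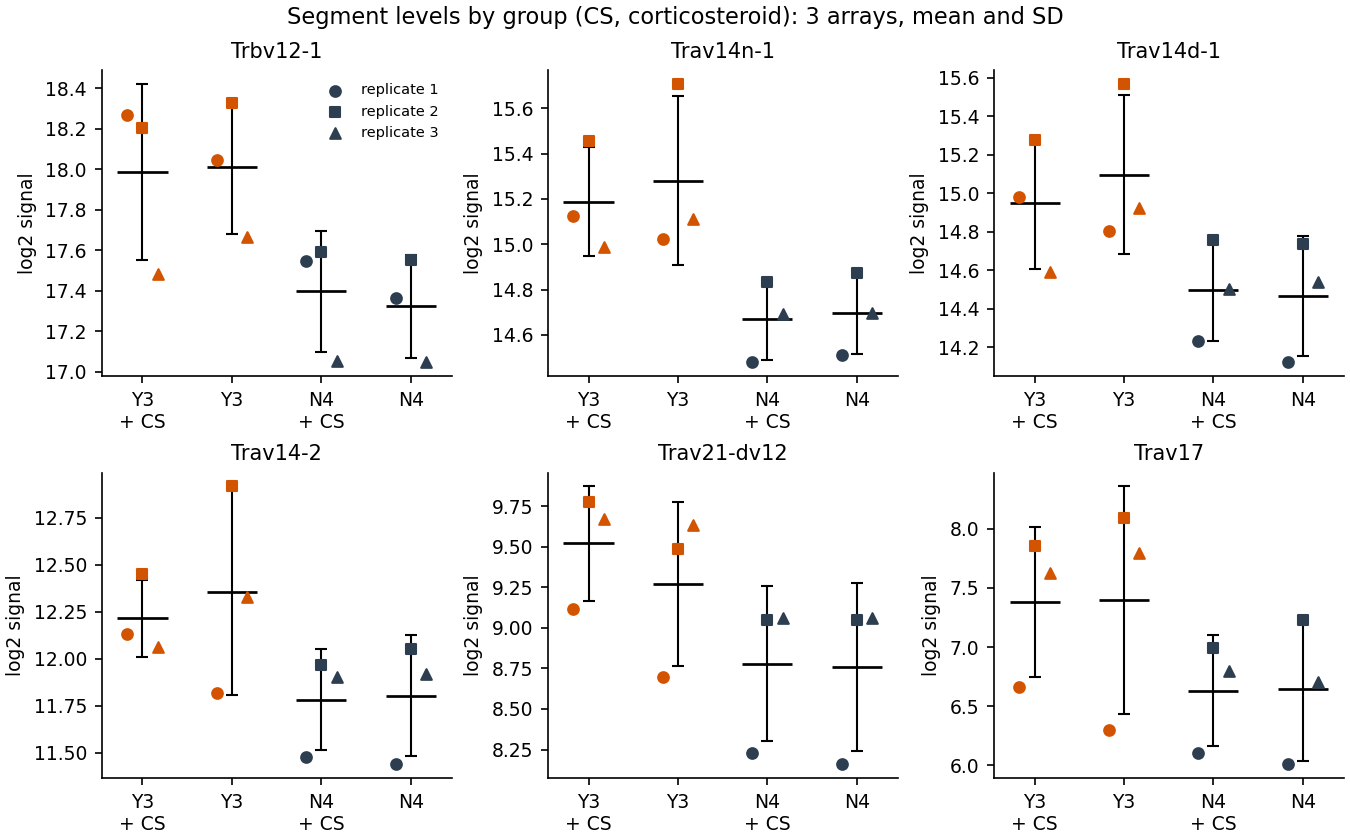
Log2 signal of 6 segment rows in the 4 groups, with 1 symbol per array by replicate number, the group mean as a line and the SD as a bar. Trbv12-1, Trav14n-1 and Trav14d-1 were higher on every Y3 array than on every N4 array, while Trav21-dv12 and Trav17 have their lowest array in each group at replicate 1.

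Trav21-dv12 and Trav17, alpha segments outside the transgenic family, had overlapping groups and were separated by the pairing. Trav21-dv12 had 8.70, 9.48 and 9.64 in Y3 cells and 8.16, 9.05 and 9.06 in N4 cells, with differences of 0.54, 0.43 and 0.58 at replicates 1, 2 and 3. Trav17 had 6.30, 8.09 and 7.80 in Y3 cells and 6.01, 7.23 and 6.70 in N4 cells. Its differences of 0.29, 0.86 and 1.09 were less even. No beta row outside the transgenic family passed. Trbv1 was lower on all 3 Y3 arrays (5.46, 5.59 and 5.27) than on all 3 N4 arrays (5.70, 5.78 and 5.88), with an adjusted p of 0.362 and 0.157 with the block. It was above the background line on only 3 of 12 arrays.

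The same comparison under corticosteroid used the other 6 arrays. Trbv12-1 had 18.27, 18.20 and 17.48 in Y3 plus corticosteroid cells, against 17.55, 17.59 and 17.05 in N4 plus corticosteroid cells. Replicate 3 of the Y3 arrays fell below N4 replicates 1 and 2, so the groups overlapped, although each replicate number gave a higher Y3 value. The difference was 0.59 (1.50-fold). Trav14n-1 had 15.12, 15.45 and 14.99 in Y3 plus corticosteroid cells and 14.48, 14.83 and 14.69 in N4 plus corticosteroid cells, with no overlap and a difference of 0.52. The Trav14 rows again all had differences above 0, from 0.06 to 0.52 with a median of 0.40, and the other alpha rows had a median of 0.09. All 3 Y3 arrays exceeded all 3 N4 arrays in 10 segment rows (7.52%), 4 of them of the transgenic families, beside 7.95% of all rows. In none were all 3 below, beside 8.53% of all rows.

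No segment row passed limma's test under corticosteroid without the block (5 with an unadjusted p under 0.05), and 0.239% of all rows did. With the block 6 rose and none fell, 4.51% of the members, beside 3.43% of all rows that rose, 3.02% that fell and 6.45% in either direction, again close to the background. Trbv12-1 rose by 0.59 ± 0.10 (SE, limma's adjusted p = 0.0103), Trav14n-1 by 0.52 ± 0.11 (0.0243), Trav21-dv12 by 0.74 ± 0.09 (0.00310) and Trav17 by 0.75 ± 0.16 (0.0289). Without the block the adjusted p-values of these 4 lay between 0.333 and 0.689. In limma's blocked fit Trav5-1 (0.71 ± 0.15, adjusted p = 0.0248) and Trav7-4 (0.48 ± 0.11, adjusted p = 0.0351) also passed, but Trav5-1 was above the background line on 0 arrays and Trav7-4 on 1, so their signals were not separated from background. Of the same 21 alternatives, with the same limits, Trav21-dv12 passed in 20, Trbv12-1 in 18 (adjusted p up to 0.103), Trav14n-1 in 16 (up to 0.239), Trav17 in 16 (up to 0.125) and Trav7-4 in 11, and Trav5-1 passed in 15 of 20. The count was 1 without N4 plus corticosteroid replicate 2, 2 without Y3 plus corticosteroid replicate 1, and 3 without N4 plus corticosteroid replicate 1 or Y3 plus corticosteroid replicate 2. Across all 4 groups at once, the moderated F-test called 0 segment rows without the block (0.436% of all rows) and 8 with it (6.02%, beside 6.72% of all rows). These were Trbv12-1, Trav14n-1, Trav14d-1, Trav14d-2, Trav14n-2, Trav17, Trav21-dv12 and Trav7-4.

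**Figure D4:**
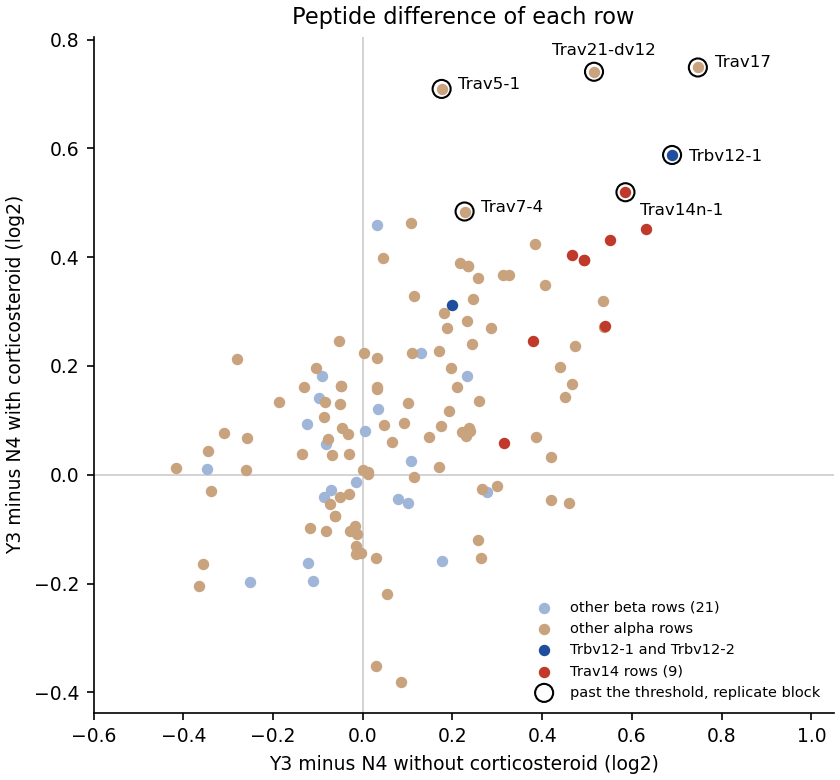
Log2 difference Y3 minus N4 of each of the 133 rows without corticosteroid (horizontal) and with corticosteroid (vertical), 2 comparisons that share no array, with rings on the rows past the adjusted threshold in either one when the replicate number is a block. The Trav14 rows and Trbv12-1 lie in the upper right, from 0.31 to 0.69 without and from 0.06 to 0.59 with corticosteroid.

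Levels of markers are given beside these peptide differences. The summed level of the 9 B cell markers was 13.82 to 14.29 in Y3 plus corticosteroid, 14.36 to 14.77 in Y3, 12.71 to 13.95 in N4 plus corticosteroid and 12.60 to 14.11 in N4 cells (log2), carried by Ighm and Cd79b, while Cd79a and Ms4a1 were above the background line on 0 arrays. The summed level of the natural killer list, where only Eomes was above the line on all arrays, was 9.22 to 9.48, 9.22 to 9.62, 6.93 to 8.04 and 7.13 to 7.996 in the same order of groups. Of its 4 rows 2 were above the line on 0 arrays, so the sum is not a measure of natural killer cells. Cd8b1, a chain of the CD8 coreceptor, rose in Y3 cells by 0.79 ± 0.11 (SE, limma with the block, adjusted p = 0.00935; 0.520 without the block). Cd79b, a signalling chain of the B cell receptor, rose by 0.68 ± 0.10 in the same fit (limma, adjusted p = 0.0109; 0.653 without the block). The part of these markers in the segment differences was not tested.

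Corticosteroid changed no segment row past the threshold under either peptide. Under Y3 peptide, Trbv12-1 averaged 17.98 ± 0.44 with and 18.01 ± 0.33 without corticosteroid, and Trav14n-1 15.19 ± 0.24 with and 15.28 ± 0.37 without (SD, n = 3 each). Under N4 peptide, Trbv12-1 averaged 17.40 ± 0.30 with and 17.32 ± 0.26 without, and Trav14n-1 14.67 ± 0.18 with and 14.70 ± 0.18 without. These differences were smaller than the spread between arrays. limma called 0 segment rows under Y3 (3 with an unadjusted p under 0.05) and 0 under N4 (1), beside 0.0% of all rows in both. With the replicate block it again called 0 segment rows under Y3 (6 with an unadjusted p under 0.05; 0.0% of all rows) and 0 under N4 (6; 0.00249% of all rows).

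The pairs gave shares near or below the background. Under Y3, 12 rows (9.02%) were higher with corticosteroid at all 3 replicate numbers and 18 (13.5%) lower, beside 16.0% and 16.6% of all rows. Under N4, 15 (11.3%) were higher and 20 (15.0%) lower, beside 14.3% and 13.5% of all rows. All 3 corticosteroid arrays were above the others in 4 segment rows under Y3 and below them in 2 (4.3% and 4.16% of all rows), and under N4 in 1 and 2 (2.78% and 2.23%).

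Among rows above the background line, the corticosteroid differences stayed small. Under Y3 all 9 Trav14 rows were below 0, from -0.24 to -0.05, but in none were all 3 pairs lower. The lowest segment row was Trav15d-2-dv6d-2 at -0.42 ± 0.26 (SE, limma with the block, adjusted p = 0.881). It had 9.37, 9.30 and 9.06 in Y3 plus corticosteroid cells and 8.99, 10.22 and 9.77 in Y3 cells, so replicate 1 went the other way. Under N4 the Trav14 differences lay between -0.09 and 0.17. Among the 45 other alpha rows above the line on every array they ran from -0.28 (Trav12n-3) to 0.27 (Trav16d-dv11). Trav6n-5, above the line on 10 arrays, was higher with corticosteroid in all 3 pairs (0.34, 0.24 and 0.52), with a difference of 0.37 ± 0.16 (SE, limma with the block, adjusted p = 1.00). The interaction, the corticosteroid difference under Y3 minus that under N4, was between -0.27 and -0.06 for the Trav14 rows and -0.10 for Trbv12-1. No segment row passed for it without or with the block (2 and 4 with an unadjusted p under 0.05, beside 0.0% of all rows adjusted in both).

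The replicate number, which the groups share, went with larger differences than peptide or corticosteroid in most alpha rows. The labels do not say what a number stands for. The median level of the 101 other alpha rows was 5.77 to 6.23 on the 4 arrays of replicate 1, 6.63 to 6.85 on those of replicate 2 and 6.63 to 6.70 on those of replicate 3. Every replicate 1 array was therefore below all 8 others. The number accounted for a median of 73.5% of the variance over arrays in these rows and 50.3% in the Trav14 rows, beside 25.7% over all rows and 42.6% over the 13925 rows above the line throughout. The 4 groups accounted for 9.65% in the other alpha rows and 41.4% in the Trav14 rows, beside 24.0% over all rows and 25.0% over those above the line throughout.

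In the blocked fit, a contrast added after the data had been seen, replicate 2 exceeded replicate 1 in 80 of 133 segment rows and was lower in none. That is 60.2% of the members, beside 5.52% of all rows that rose, 5.12% that fell and 10.6% in either direction. Replicate 3 exceeded replicate 1 in 73 rows and was lower in 1, 55.6% in either direction beside 20.2% of all rows (10.9% rose and 9.26% fell). Between replicates 3 and 2, 1 segment row fell, beside 0.189% of all rows that fell and 0.336% in either direction. The median difference over the segment rows was 0.57 for replicate 2 minus 1 and 0.49 for 3 minus 1, beside 0.02 and 0.04 over all rows. The 4 arrays of replicate 1 were all below the 8 others in 62 segment rows (46.6%), 61 of them alpha rows outside Trav14, beside 4.07% of all rows.

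The largest of these differences were in single rows of the Trav7 and Trav6 families. By family median, Trav7 had 0.67 and 0.56 and Trav6 0.30 and 0.35 (replicates 2 and 3 minus replicate 1). Those of Trav13 were larger, 0.90 and 0.86. Trav7n-6 averaged 8.78 on replicate 2 and 8.92 on replicate 3 arrays, against 6.65 on replicate 1 arrays. Its highest arrays were Y3 replicate 2 and N4 replicate 3, both at 9.64, and its lowest were 6.36 in N4 plus corticosteroid and 6.22 in N4 cells, both at replicate 1. The differences from replicate 1 were 2.14 ± 0.43 and 2.27 ± 0.43 (SE, limma with the block, adjusted p = 0.0170 and 0.00718). Trav7-6 (1.83 and 1.92) and Trav6d-7 (1.68 and 1.55) followed. All 12 Trav13 rows were higher at both of the other numbers. Of the 9 Trav14 rows, 9 rose at replicate 2 and 1 at replicate 3. Of the 21 other beta rows, 2 rose at replicate 2 and 0 at replicate 3.

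At replicate 3 against replicate 1, Trbv12-1 ran differently from most alpha rows. Its arrays of replicate 3 read 17.48, 17.66, 17.05 and 17.05 in Y3 plus corticosteroid, Y3, N4 plus corticosteroid and N4 cells, the lowest array of each group. The replicate 3 mean was 17.31, against 17.81 for replicate 1 and 17.92 for replicate 2. It fell by 0.49 ± 0.09 relative to replicate 1 (SE, limma with the block, adjusted p = 0.00486) and by 0.61 ± 0.09 relative to replicate 2 (adjusted p = 0.0309). It was the only segment row that fell past the threshold in either contrast. Without any 1 of 10 of the 12 arrays the second call was lost, and it held without Y3 plus corticosteroid replicate 1 or 3. All 9 Trav14 rows were also below 0 for replicate 3 minus 2, from -0.45 to -0.25 with a median of -0.31. For replicate 3 minus 1 all 9 were above 0.

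**Figure D5:**
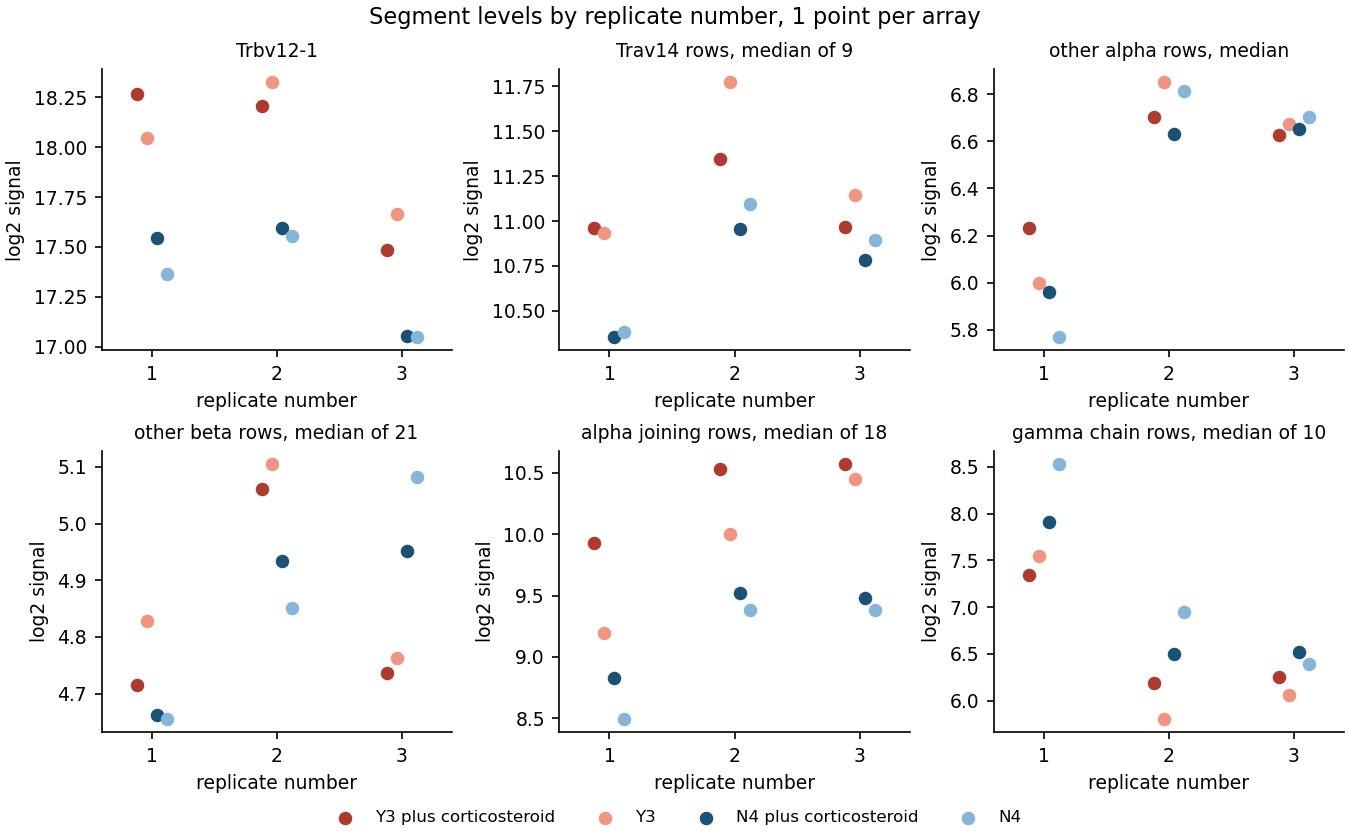
Log2 signal by replicate number with 1 point per array, coloured by group, for Trbv12-1, for the medians of the Trav14, other alpha and other beta rows, and for the medians of the alpha joining and gamma chain rows. The other alpha rows lie between 5.77 and 6.23 at replicate 1 and between 6.63 and 6.85 at the other numbers, the gamma chain rows run the opposite way, and Trbv12-1 is lowest at replicate 3.

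Other rows of the array moved with the replicate number too. The 95th percentile of the negative controls was 8.75 to 9.18 on replicate 1, 8.98 to 9.65 on replicate 2 and 9.43 to 9.68 on replicate 3 arrays, while array medians stayed between 5.01 and 5.16. Cd8b1 was higher at replicates 2 and 3 by 0.72 and 0.71. Cd4 was higher at replicate 2 by 1.20 (limma with the block, adjusted p = 0.00602). The summed level of the 8 T cell markers was 17.49 to 17.84 at replicate 1, 17.75 to 18.21 at replicate 2 and 17.69 to 18.10 at replicate 3. The 3 gamma delta T cell markers measured, Sox13, Blk and Cd163l1, were above the line on 0 arrays. What these measures contribute to the segment differences was not tested.

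The rest of the receptor pathway was read from lists of joining, diversity, delta, gamma, CD3 and recombination genes. Constant region rows of the alpha and beta chains were not found under their symbols. Of 18 alpha joining rows, which supply the end of the alpha variable domain, 15 were above the line on all arrays. Without the block limma called 0 rows of these lists between the peptides, so the counts that follow are from the blocked fit, where 1.66% of all rows rose without and 3.43% with corticosteroid. Of the joining rows 7 rose and 0 fell in Y3 against N4 cells, and 12 rose under corticosteroid, among them Traj60, which was above the line on 0 arrays. Traj36 had 9.89, 10.88 and 11.40 in Y3 cells and 8.83, 9.61 and 9.89 in N4 cells, a difference of 1.28 (limma with the block, adjusted p = 0.00408; 0.438 without). The 1 beta diversity row, Trbd1, rose by 0.59 (limma with the block, adjusted p = 0.0284; 0.662 without).

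Of 6 delta chain rows, whose segments lie within the alpha locus, 3 rose in each peptide comparison, with Trdv2-2 at 0.99 without corticosteroid and 1.31 with it. Of 10 gamma chain rows, 5 were above the line on all arrays and 3 on none. No gamma chain row passed in either comparison, but 7 fell at replicate 2 and 8 at replicate 3 relative to replicate 1. Of all rows, 5.12% and 9.26% fell in these 2 contrasts. The constant region row Tcrg-C3 had 8.15 and 7.28 in N4 cells at replicates 2 and 3, against 10.93 at replicate 1. Of 7 CD3 and coreceptor rows, 2 rose in Y3 against N4 cells (Cd8b1 and Cd3d) and 5 under corticosteroid, among them Cd4 (0.84, limma with the block, adjusted p = 0.0484), above the line on 1 array. The recombination genes Rag1 and Rag2, which cut the segments, and Ptcra, the surrogate alpha chain of precursors, were above the line on 0 arrays, and none of the 4 rows in that list passed between the peptides. The other row, Dntt, which adds bases at the joints, was above the line on 4 arrays and higher at replicates 2 and 3 by 1.07 and 1.85 (limma with the block, adjusted p = 0.0197 and 0.00152). Of 227 immunoglobulin variable rows, 0 rose and 1 fell in Y3 against N4 cells and 2 rose under corticosteroid.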

How the data were processed

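Total RNA of 12 samples was made into biotinylated single-stranded DNA and hybridised to Affymetrix MTA arrays (labels' protocols, column headers). The authors deposited 1 linear signal intensity for each transcript cluster, from gene-level SST-RMA per the file headers. The submitters' processing notes name RMA without a version. The series matrix held the same intensity values. No genome build is named in the labels or headers, so no coordinates or sequences are reported. The design had assumed log2 values, and log2 was taken here of the deposited intensities, with no pseudocount, floor or further scaling. Of 72688 features, 65956 were transcript clusters and 40123 of these had a gene symbol, all of which were tested.

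Group means were fitted over all 12 arrays with limma 3.58.1 (R 4.3.3), leaving 8 residual degrees of freedom, or 6 with the replicate block. Tests were two-sided, with Benjamini-Hochberg adjustment over 40123 rows and a threshold of 0.05. Errors beside group means are SDs of 3 arrays, and those beside tested differences are limma standard errors. The design has no block. Deviations from group means of arrays with the same replicate number correlated at 0.126 to 0.805 over 18 pairs, against -0.701 to 0.483 over 36 other pairs, which are correlations across rows. These ranges overlap, so pairing by number is an assumption. The numbers were taken to pair the arrays, and blocked values are given beside the main ones for the group comparisons. Contrasts between replicate numbers exist in the blocked fit alone. The fit was tested on simulated data. Plots were drawn with matplotlib 3.10.9 and tables made with pandas 2.3.3 and numpy 2.4.6 under Python 3.11.15. RefSeq names and neighbours come from the GRCm38.p6 table and its order of genes.

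Named rows were those of the transgenic families, the 8 brightest other rows per locus, all rows past the threshold without or with the block, and per comparison the 3 highest and 3 lowest differences among rows above the line on all 3 arrays of at least 1 group compared. Contrasts between replicate numbers, and the rows named for them or for the widest copy spread, were chosen after values were seen. The members, lists and rules were chosen with earlier results of these data known. Alternatives were the replicate block, median centring, quantile scaling, a level filter, 1 row per symbol, all transcript clusters, array weights, trend and robust moderation, the series matrix, a stricter background line and each array left out. Precision is limited by 3 arrays per group.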

Additional observations from a re-analysis of the deposited data

Results flagged for a closer look

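In groups of 3 arrays no single array was tested as an outlier. Trbv19, a beta segment above the background line on 0 of 12 arrays, was lower with corticosteroid in all 3 pairs under Y3 and higher in all 3 pairs under N4, an interaction of -0.0833 (log2). Its level averaged 5.02, and limma's test of the interaction gave an adjusted p of 1.00 without and with the block. Such opposite pairs were seen in 1 of the 43 named rows and in 2.53% of all 40123 rows.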

How the results depend on the processing

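Without the block, 0 segment rows passed in any comparison under any single array left out, and array weights gave 1 in Y3 against N4 with corticosteroid and 1 over the 4 groups. The replicate block, which assumes that the numbers pair the arrays, gave 4 without corticosteroid, 6 with it and 8 over the 4 groups, and changed no other call. In the blocked fit, the count of 4 became 7 under median centring, the level filter or array weights and 2 under trend and robust moderation, and the count of 6 became 12 under array weights. Leaving out 1 array gave 0 to 8, 1 to 6 and 3 to 10 for these 3 counts (the last was 5 without N4 replicate 1 or Y3 plus corticosteroid replicate 2), and leaving out replicate 1 of all groups gave 1 for each. For the replicate contrasts, leaving out 1 array gave 55 to 85 rows for replicate 2 minus 1, 58 to 82 for 3 minus 1 and 0 to 1 for 3 minus 2, and leaving out replicate 1 of all groups gave 0 for the last. The causes were not tested. Of the transgenic families, 10 of 11 rows were above the background line on every array and 8 were above the stricter line on every array. The 10 differences of named rows that passed in the blocked fit kept their sign in all 209 values under its alternatives. Of 3440 values for the 215 differences in the fit without the block, none of which passed, 293 changed sign, among them the corticosteroid difference of Trbv12-1 under Y3 (-0.03, against 0.22 without Y3 plus corticosteroid replicate 3) and under N4 (0.07, against -0.06 without N4 replicate 3). With 3 arrays a group, and 39 of 133 rows never above the background line, small differences in dim rows cannot be resolved.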
